A study of Danio rerio with 6 samples.

Results

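The genes described here are 5 rows of a table of 2471 genes analysed. They are evpla, agr1 and tfap2c, taken by name, and krt17 and krt18, the 2 rows whose name starts with krt. They were grouped as periderm and keratin genes, by a rule on names that was set with earlier results of these data known. Which cells expressed the 5 genes was not tested. The table itself had been limited by the authors to genes past 2-fold and adjusted p 0.01 between the same sorts, so every gene in it, these 5 included, differed by construction. The values below therefore describe the size, spread and company of these differences, and the p-values are no independent evidence that they exist.

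The libraries came from zebrafish embryos at 22 hours post fertilization. The embryos carried both transgenes, NFKB:d2eGFP, a short-lived green reporter of NF-kB activity, and kdrl:mCherry, a red reporter driven by the promoter of the endothelial VEGF receptor gene kdrl. Dissected trunks were dissociated with the enzyme mix Liberase TM, dead cells were gated out, and mCherry-positive cells were sorted into NFKB+ and NFKB- cells, about 7000 per sample. Each sort had 3 libraries, named biological replicates in the labels, with no statement on whether each had its own pool of embryos. Both sorts are thus kdrl+ cells, NF-kB was not perturbed, and if the replicates share a pool the p-values measure the spread between these samples only. Libraries are called by the numbers of the table's columns, 1 to 3 for NFKB+ and 4 to 6 for NFKB-.

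The zebrafish embryo is covered by a bilayered epidermis, with the flat periderm outside and the basal epidermis beneath. Keratins are intermediate filament proteins that pair as type I and type II chains and are tied to cell contacts called desmosomes by plakin proteins. Simple keratins such as keratin 18 are abundant in the enveloping layer and periderm of fish embryos, and in mammals they are found in many single-layered epithelia. At this stage keratin transcripts are among the usual markers of skin, against which sorted trunk cells can be compared.

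All 5 genes were higher in NFKB+ than in NFKB- cells, and the sorts did not overlap for any of them. In the table as a whole 54.5% of genes were called higher and 45.5% lower in NFKB+ cells by limma, and 54.3% were higher with no overlap between the sorts. The plakin gene evpla and the secretory protein gene agr1 differed most, 3.88-fold and 3.83-fold. The keratin gene krt17 differed 3.00-fold, tfap2c 2.22-fold and krt18 2.16-fold. In bulk libraries such as these, fewer cells that express a gene and less RNA per cell cannot be told apart.

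The 2 keratin rows behaved differently in spread. Keratin 18, a type I keratin of simple epithelia, had 99982, 100720 and 99505 normalized reads for krt18 (NCBI Gene 352912) in NFKB+ libraries 1, 2 and 3. In NFKB- libraries 4, 5 and 6 it had 51204, 43096 and 44957. The NFKB+ libraries thus lay within 1.01-fold of each other, and the lowest of them was 1.94-fold above the highest NFKB- library. On the scale of log2(normalized reads + 1), the level of krt18 was 16.61 ± 0.00881 among NFKB+ and 15.50 ± 0.13 among NFKB- libraries (SD, n = 3 each). The log2 difference was 1.11 with a standard error of 0.12 (limma, adjusted p = 2.77e-07 over all genes of the table). The spread of krt18 within sorts was low, with 9.23% of the table's genes varying less.

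The keratin gene krt17 (Gene 100034647) was counted with far fewer reads and varied more. Its normalized reads were 1128, 614 and 1265 in NFKB+ libraries 1 to 3 and 503, 207 and 308 in NFKB- libraries 4 to 6. NFKB+ library 2 was the low one of its sort, 1.22-fold above NFKB- library 4, the highest of the other. The log2 level of krt17 was 9.90 ± 0.56 against 8.32 ± 0.64 (SD, n = 3 each), a log2 difference of 1.59 with a standard error of 0.30 (limma adjusted p = 0.000119). Of the table's genes 93.0% varied less within sorts than krt17.

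Keratin genes lie in clusters of close relatives, so reads can be shared between copies. In the RefSeq annotation of another assembly (GRCz12tu), krt18 is named krt18a.1 and its next protein-coding neighbours are krt8 and krt18a.2. The neighbours of krt17 there are cyt1 and krt91. None of these 4 neighbours was among the genes analysed, and the sources used here do not say how reads that match several copies were counted. Of 21 keratin symbols starting with krt in that annotation, 3 had a row in the table. The additional one is krt18b, listed in the table as zgc:77517 (Gene 393540) and so outside the rule on names, and it was looked up after its values had been seen. Its log2 level was 13.43, 13.40 and 13.40 in NFKB+ libraries 1 to 3 and 12.26, 12.39 and 12.06 in NFKB- libraries 4 to 6. The NFKB+ libraries of zgc:77517 were again close together and above the others, by 2.25-fold (log2 difference 1.17 with a standard error of 0.11, limma adjusted p = 4.95e-08).

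Summing the krt rows removes the split of reads between krt17 and krt18. It leaves any sharing with krt18b or with copies that were not analysed. Of the table's reads outside the globin genes, keratins made up 1.16%, 1.09% and 1.12% in NFKB+ libraries 1 to 3. In NFKB- libraries 4 to 6 they made up 0.643%, 0.534% and 0.513%. The mean shares were 1.12% ± 0.0365 and 0.563% ± 0.0697 (SD, n = 3 each), and the sorts did not overlap (two-sided exact permutation p = 0.1, the smallest that 3 libraries against 3 allow). Of all the table's reads, globins included, the keratin shares were 1.04% ± 0.0388 and 0.344% ± 0.0594. These are shares of the reads on selected genes, not of the libraries. The gene krt18 supplied between 98.745% and 99.522% of the keratin reads in every library, so the sum follows krt18. As krt18 had passed the authors' 2-fold limit between these same sorts, a higher share was largely set by the selection. The permutation p-value is no independent evidence of it.

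**Figure D1:**
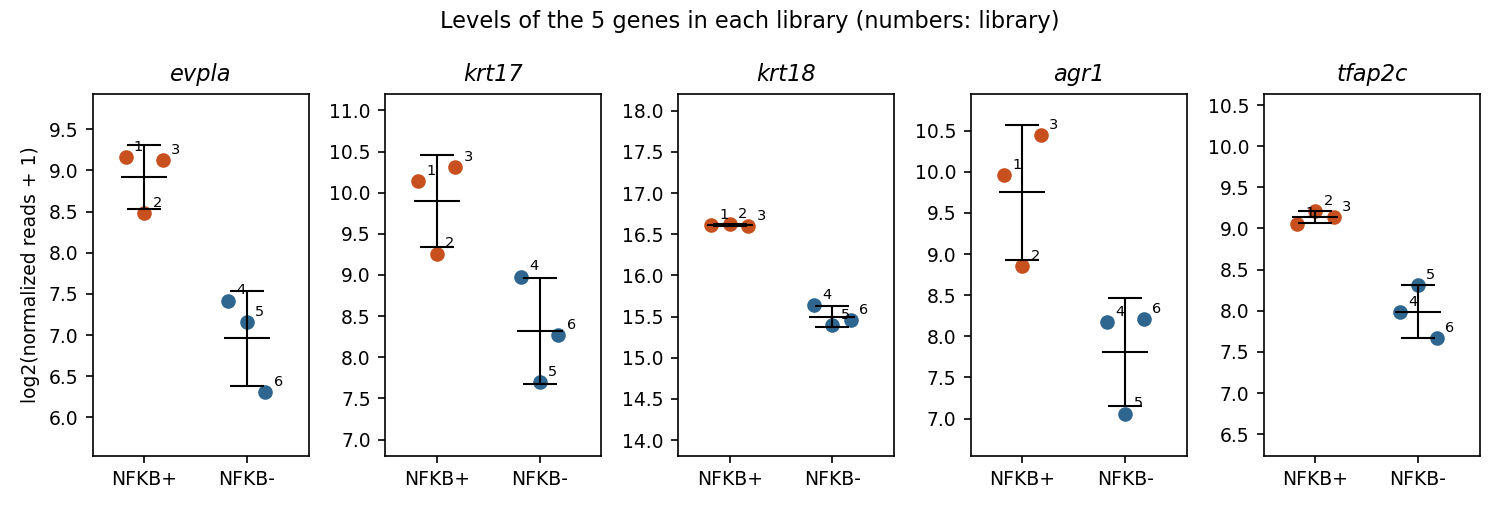
Log2(normalized reads + 1) of evpla, krt17, krt18, agr1 and tfap2c in each library (points, numbered), with the mean and SD of each sort (black). The vertical axes span the same number of log2 units; the sorts do not overlap for any gene, krt18 and tfap2c are tight among NFKB+ libraries, and NFKB+ library 2 is low for evpla, krt17 and agr1.

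Envoplakin, encoded by evpla (Gene 373136), is a plakin that binds keratin filaments at desmosomes and, in mammals, is laid down in the cornified envelope together with periplakin. Its normalized reads were 570, 355 and 560 in NFKB+ libraries 1 to 3 and 170, 142 and 78.4 in NFKB- libraries 4 to 6. The lowest NFKB+ value was 2.08-fold above the highest NFKB- value. The log2 level of evpla was 8.92 ± 0.387 against 6.96 ± 0.579 (SD, n = 3 each), a log2 difference of 1.96 with a standard error of 0.30 (limma adjusted p = 1.27e-05). This exceeded the differences of 80.7% of the genes that were higher in NFKB+ cells.

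The partner of envoplakin, periplakin (ppl, Gene 449936), was in the table too. The log2 level of ppl was 10.57, 9.90 and 10.60 in NFKB+ libraries 1 to 3 and 9.60, 8.93 and 8.95 in NFKB- libraries 4 to 6. As for evpla, NFKB+ library 2 was low within its sort, and the sorts of ppl did not overlap. Its difference was 1.19 with a standard error of 0.21 on the log2 scale, or 2.29-fold (limma adjusted p = 7.27e-05).

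The desmosome and plakin list held 24 symbols besides evpla, of which 3 were in the table. These 3 were higher in NFKB+ cells, beside 54.5% of the table's genes. The median log2 difference of the 3 was 1.19, beside 1.08 over all genes of the table and 1.48 over those higher in NFKB+ cells. Besides ppl they were dsc2l, which encodes a desmocollin, an adhesion protein of desmosomes, at 3.09-fold, and pkp2, which encodes the desmosomal plaque protein plakophilin 2, at 2.27-fold. Plakophilin 2 is not particular to skin and is also known from the heart muscle of mammals. Outside the keratins, 1 of 23 listed intermediate filament genes was in the table. This was prph, which encodes the neuronal filament protein peripherin, at 3.15-fold (log2 difference 1.66 with a standard error of 0.46), from log2 levels between 3.75 and 6.43.

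The gene agr1 (Gene 335309) encodes an anterior gradient protein of the protein disulfide isomerase family, which acts in the folding of secreted proteins. Its normalized reads were 995, 459 and 1389 in NFKB+ libraries 1 to 3 and 287, 132 and 295 in NFKB- libraries 4 to 6. The NFKB+ libraries spread over 3.02-fold, and library 2, the lowest, was 1.55-fold above the highest NFKB- library. The log2 level of agr1 was 9.75 ± 0.818 against 7.81 ± 0.654 (SD, n = 3 each), a log2 difference of 1.94 with a standard error of 0.36 (limma adjusted p = 9.48e-05). Of the table's genes 95.7% varied less within sorts, so agr1 was the most variable of the 5.

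The gene tfap2c (Gene 494033) encodes an AP-2 transcription factor that acts in non-neural ectoderm and, with its relative tfap2a, in the neural crest. Its normalized reads were 535, 592 and 563 in NFKB+ libraries 1 to 3 and 252, 316 and 203 in NFKB- libraries 4 to 6. The NFKB+ libraries lay within 1.11-fold of each other, and the lowest was 1.69-fold above the highest NFKB- library. The log2 level of tfap2c was 9.14 ± 0.0737 against 7.99 ± 0.32 (SD, n = 3 each), a log2 difference of 1.15 with a standard error of 0.21 (limma adjusted p = 6.66e-05). Both tfap2c and krt18 were near the lower end of the genes higher in NFKB+ cells, with 17.1% and 12.5% of these showing a smaller difference.

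In the authors' deposited table the log2 fold changes were 1.85 for evpla, 1.72 for agr1, 1.50 for krt17, 1.11 for tfap2c and 1.11 for krt18. These put the 5 genes in the same order as the refit, apart from the tie of the last 2 at this rounding.

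Those periderm genes outside the rule on names that passed the authors' limits were mostly higher in the same libraries. Of 41 listed genes of the surface epithelium 10 were in the table. Of these 9 were higher and 1 was lower in NFKB+ cells, with a median log2 difference of 1.31. The other listed genes were not among the genes analysed, so their direction is not known here. The claudin gene cldne, for a tight junction protein, was 4.06-fold higher, at a log2 level of 10.68, 9.45 and 9.58 against 8.09, 7.52 and 8.03. Its relative cldng was the exception, 4.22-fold lower, at 9.70, 10.11 and 9.82 against 11.70, 11.95 and 12.21. These claudin genes thus went opposite ways with no overlap between the sorts. The S100 calcium-binding protein genes icn2 and s100v2 were 2.47-fold and 2.32-fold higher. The annexin genes anxa1c and anxa1b, for membrane-binding proteins, were 2.50-fold and 2.18-fold higher. For anxa1b the sorts overlapped, at log2 levels of 8.72, 6.92 and 8.78 against 7.06, 6.75 and 7.24 (limma adjusted p = 0.0130). The log2 difference of anxa1b, 1.13 with all libraries, came to 1.74 when NFKB+ library 2 was left out. It came to 0.81 with NFKB+ library 3 left out and 1.15 with NFKB- library 4 left out, and the call then ended (limma adjusted p = 0.0819 and 0.0521). The call of anxa1b also ended without the mean trend and under the median ratio scaling (limma adjusted p = 0.0613 and 0.59). The remaining listed genes, dhrs13a.2, tmem176 and mid1ip1a, were 3.41-, 3.14- and 2.82-fold higher.

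Of 39 genes listed for the basal epidermis and for epithelial adhesion, 4 were in the table, and these 4 were higher, with a median log2 difference of 1.77. They were hmcn1, which encodes the matrix protein hemicentin 1, at 3.92-fold, the integrin gene itga6b at 3.58-fold, the protease inhibitor gene spint1a at 3.27-fold and the fibrillin gene fbn2b at 2.57-fold. Integrin alpha 6 and fibrillins are also made outside the skin. Over the periderm, basal and desmosome lists together, 15 of 16 genes were higher, with a median of 1.43, beside 54.5% higher and a median of 1.08 in the whole table. The median of 1.08 covers genes of both directions. Over the table's genes that were higher in NFKB+ cells the median was 1.48, so the size of the listed differences did not stand out.

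**Figure D2:**
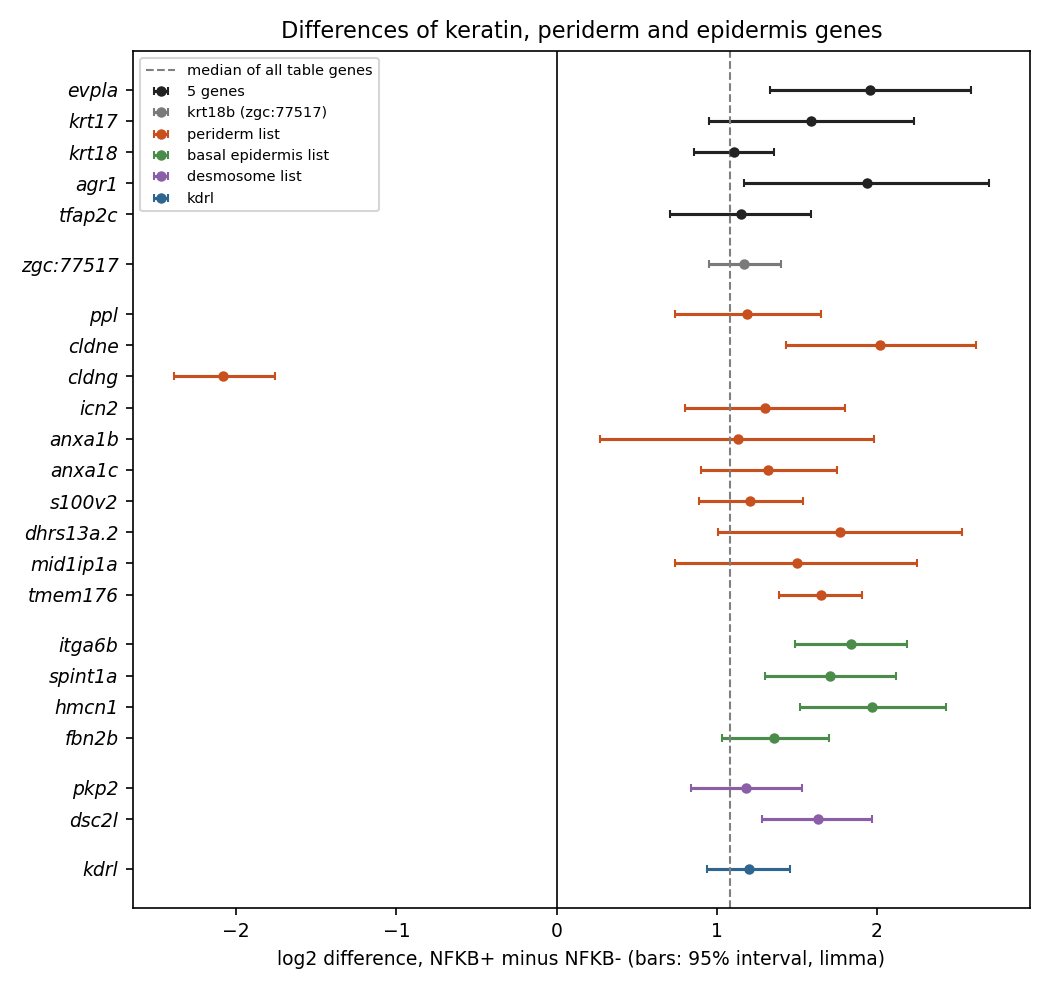
Log2 differences, NFKB+ minus NFKB-, of the 5 genes, krt18b (zgc:77517), the genes of the periderm, basal epidermis and desmosome lists found in the table, and kdrl, with 95% intervals from limma. Points to the right are higher in NFKB+ cells; cldng, at -2.08, is the one gene on the left, and krt18 (1.11) and tfap2c (1.15) lie near the median of all table genes (1.08, dashed).

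Among 36 listed transcription factors of surface ectoderm and epithelia other than tfap2c, 4 were in the table. The zinc finger genes bnc2 and sall4 were 3.64-fold and 2.69-fold higher in NFKB+ cells. The Krüppel-like factor gene klf17 was 6.04-fold lower, at log2 levels of 12.35, 12.47 and 12.62 against 14.96, 15.12 and 15.15. Its log2 difference, -2.59, was close to the medians of the erythroid and myeloid lists given below, -2.73 and -2.87. Which cells expressed klf17 was not tested. The ionocyte factor gene foxi3a was 3.39-fold higher, with log2 levels of 8.33, 6.39 and 6.54 against 5.38, 6.38 and 4.20, so that the sorts were separated by a narrow margin. The log2 difference of foxi3a, 1.76, came to 1.14 when NFKB+ library 1 was left out, and its call ended when NFKB- library 6 was left out (limma adjusted p = 0.0592).

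Ionocytes are the ion-transporting cells of the embryonic skin, and 5 of 20 listed genes were in the table. All of these 5 were higher, beside 54.5% of the table's genes. The median log2 difference of the 5 was 1.76, beside 1.48 over the table's genes higher in NFKB+ cells. Besides foxi3a the 5 included the carbonic anhydrase genes ca15a and ca2, at 8.49-fold and 2.29-fold, and ndrg1a at 2.36-fold. The level of ca15a was low, between 1.06 and 6.87 on the log2 scale. Its reads in NFKB- libraries 4 to 6 were 7, 12 and 1. Its log2 difference, 3.09, came to 2.31 with NFKB- library 6 left out and 2.50 with NFKB+ library 1 left out. A pseudocount of 5 instead of 1 gave 2.38. The adhesion molecule gene ceacam1 was at 0 in all 3 NFKB- libraries and at log2 levels of 8.25, 5.34 and 7.11 in NFKB+ libraries 1 to 3. Against a floor of 3 reads in each NFKB- library, ceacam1 was at least 50.4-fold higher, a bound that fell to 27.8-fold without NFKB+ library 1. With ceacam1 at this bound the list's median was 1.76 as well.

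Markers of the sorted cells themselves moved in the same libraries. The gene kdrl (Gene 796537), whose promoter defined the red gate, was 2.30-fold higher in NFKB+ cells (limma adjusted p = 2.07e-07). Of 34 listed endothelial genes 22 were in the table, 21 higher and 1 lower in NFKB+ cells. The list also holds receptor genes such as stab1, stab2, aplnra, aplnrb and gpr182. The summed reads of the 22 were 8.46% to 9.10% of the table's reads in NFKB+ and 1.70% to 2.65% in NFKB- libraries. The largest differences among them were those of aplnra and stab2, 6.13-fold and 5.51-fold. The summed reads of the 10 periderm genes were 0.10% to 0.138% in NFKB+ and 0.0551% to 0.0647% in NFKB- libraries. This sum mixes both directions, since cldng had the most reads of the 10 in NFKB- libraries. It had 828, 1104 and 903 normalized reads in NFKB+ and 3319, 3968 and 4726 in NFKB- libraries. The 5 ionocyte genes made up 0.107% to 0.125% of the table's reads in NFKB+ and 0.0280% to 0.0377% in NFKB- libraries. Most of these ionocyte-list reads came from ndrg1a, so their sum follows that gene. It had 9011, 9327 and 9092 normalized reads in NFKB+ and 4040, 3828 and 3745 in NFKB- libraries. The next, ca2, had 1930, 1284 and 1267 against 642, 865 and 470. Blood genes went the opposite way. The 20 erythroid genes in the table, of 28 listed, and the 23 myeloid genes, of 28, were all lower in NFKB+ cells. The share of lower genes over the whole table was 45.5%. Erythroid reads were 7.92% to 9.19% of the table's reads against 41.8% to 48.1%, led by hbae1 and nt5c2l1 at 7.89-fold and 7.86-fold lower, and myeloid reads 0.240% to 0.299% against 1.44% to 1.67%, led by lyz and mmp13a at 25.5-fold and 21.3-fold lower. The part of these shifts in the differences of the 5 genes was not tested. The ratios to endothelial genes that follow remove the scaling between libraries, but they cannot separate the mixture of cells from expression per cell.

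A ratio within a library does not depend on how libraries were scaled to each other. Relative to kdrl, krt18 stood at log2 ratios of 1.58, 1.53 and 1.59 in NFKB+ libraries 1 to 3 and 1.51, 1.69 and 1.78 in NFKB- libraries 4 to 6. The sorts overlapped, with a difference of -0.09 (two-sided exact permutation p = 0.4). For tfap2c the ratios were -5.96, -5.87 and -5.87 against -6.15, -5.40 and -6.01, a difference of -0.05 (exact permutation p = 1). With single libraries left out, this difference ranged from -0.20 without NFKB- library 4 to 0.18 without NFKB- library 5. The SD of the ratio was 0.0326 in NFKB+ and 0.136 in NFKB- libraries for krt18, and 0.0512 and 0.403 for tfap2c. The difference of krt18 thus lay between the SDs of the sorts, and it ranged from -0.16 without NFKB- library 4 to -0.03 without NFKB- library 6. Like krt18 and tfap2c, kdrl lay near the authors' 2-fold limit, with 22.6% of the genes higher in NFKB+ cells showing a smaller difference. Genes near the same limit differ little from each other largely by the selection. These small differences in the ratio therefore do not show that krt18 or tfap2c followed kdrl.

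Relative to kdrl, evpla stood at -5.87, -6.61 and -5.88 in NFKB+ and -6.71, -6.55 and -7.37 in NFKB- libraries, a log2 difference of 0.76 (two-sided exact permutation p = 0.2). For agr1 the ratios were -5.06, -6.24 and -4.57 against -5.97, -6.65 and -5.47, a difference of 0.74 (exact permutation p = 0.3). For krt17 they were -4.88, -5.82 and -4.70 against -5.16, -6.01 and -5.41, a difference of 0.39 (exact permutation p = 0.4). In these 3 genes NFKB+ library 2 fell among the NFKB- libraries, so the sorts overlapped. As kdrl lay near the authors' 2-fold limit, most genes higher in NFKB+ cells have a positive difference in this ratio. A positive value is therefore not particular to evpla, agr1 or krt17. For evpla the difference exceeded the SD of the ratio in either sort, 0.427 in NFKB+ and 0.434 in NFKB- libraries. For agr1 it exceeded the SD of NFKB- libraries, 0.592, but not that of NFKB+ libraries, 0.859, and for krt17 it was below both, 0.601 and 0.436. Single libraries moved these values: with NFKB+ library 2 left out the differences were 1.00 for evpla, 1.21 for agr1 and 0.73 for krt17. The lowest values, with 1 library left out, were 0.51 for evpla (NFKB- library 6), 0.38 for agr1 (NFKB+ library 3) and 0.15 for krt17 (NFKB- library 5). The difference of agr1 was also low without NFKB- library 5, at 0.43, and that of krt17 without NFKB+ library 3 or 1, at 0.17 and 0.26. With 3 libraries of each sort no exact permutation test can go below p = 0.1, and a p above it does not show that the genes moved alike.

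Against the mean of the 22 listed endothelial genes, the ratios of krt18 and tfap2c were lower in NFKB+ than in NFKB- libraries. That mean covers the listed genes that passed the authors' 2-fold limit, 22 of 34, with a median log2 difference of 1.59, so a gene near that limit, as krt18 and tfap2c are, falls below it largely by the selection. The log2 ratios of krt18 were 1.65, 1.64 and 1.67 in NFKB+ and 2.04, 2.12 and 2.27 in NFKB- libraries, a difference of -0.49 with no overlap (two-sided exact permutation p = 0.1). For tfap2c the difference was -0.45, also with no overlap (exact permutation p = 0.1). The differences of evpla, agr1 and krt17 were 0.36, 0.34 and -0.01, each with overlapping sorts (exact permutation p = 0.5, 0.6 and 1).

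**Figure D3:**
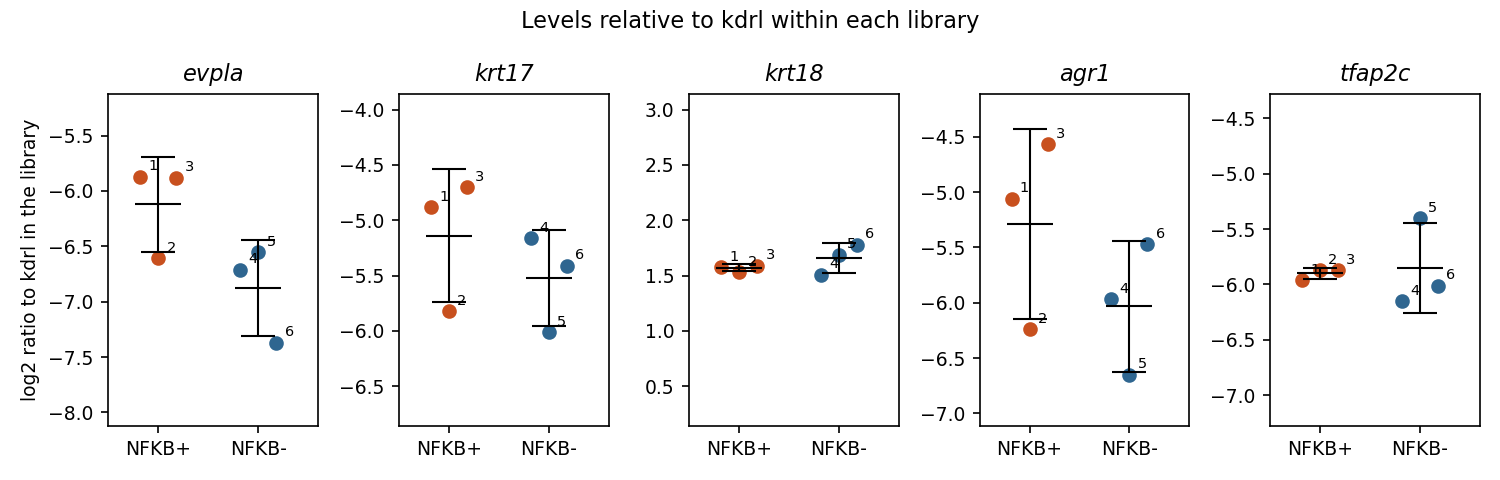
Log2 ratio of evpla, krt17, krt18, agr1 and tfap2c to kdrl within each library (points, numbered), with the mean and SD of each sort (black). The sorts overlap for all 5 genes, and the NFKB+ libraries are tightest for krt18 and tfap2c.

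The 5 genes fell into different patterns across the libraries of a sort. In NFKB+ library 2, evpla, krt17 and agr1 lay below the mean of their sort, with deviations of -0.45, -0.64 and -0.90 on the log2 scale. In the same library krt18 and tfap2c deviated by 0.01 and 0.07. NFKB+ library 2 was the lowest of its sort for 3 of the 5 genes and for 7 of the 16 listed epidermal genes, beside 25.3% of all genes in the table. These 7 were ppl, cldne, icn2, anxa1b, anxa1c, s100v2 and mid1ip1a, all from the periderm list. The margin was narrow for s100v2, at -0.12 against -0.07 in NFKB+ library 1. It was also narrow for cldne, at -0.45 against -0.33 in NFKB+ library 3.

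In NFKB- library 5, krt17 and agr1 deviated by -0.62 and -0.75 and krt18 by -0.10. That library was the lowest of its sort for 3 of the 5 genes, beside 32.0% of all genes in the table. It was also lowest for 11 of the 16 epidermal genes, including the same 7 periderm genes. For several of these the margin to NFKB- library 6 was narrow, while NFKB- library 4 was high. The deviations in NFKB- libraries 4, 5 and 6 were 0.44, -0.23 and -0.21 for ppl, and 0.37, -0.22 and -0.15 for anxa1c. For krt18 they were 0.15, -0.10 and -0.04. The rank alone thus does not show a dip particular to library 5. In library 5 evpla deviated by 0.19 and tfap2c by 0.32, so these were not low there. For both libraries the pattern was noticed in the data, and genes of one library are not independent. Over all genes of the table the median deviation was 0.03 in library 2 and -0.03 in library 5, and their globin shares of the table's reads, 7.48% and 39.7%, lay between those of the other libraries of their sorts.

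**Figure D4:**
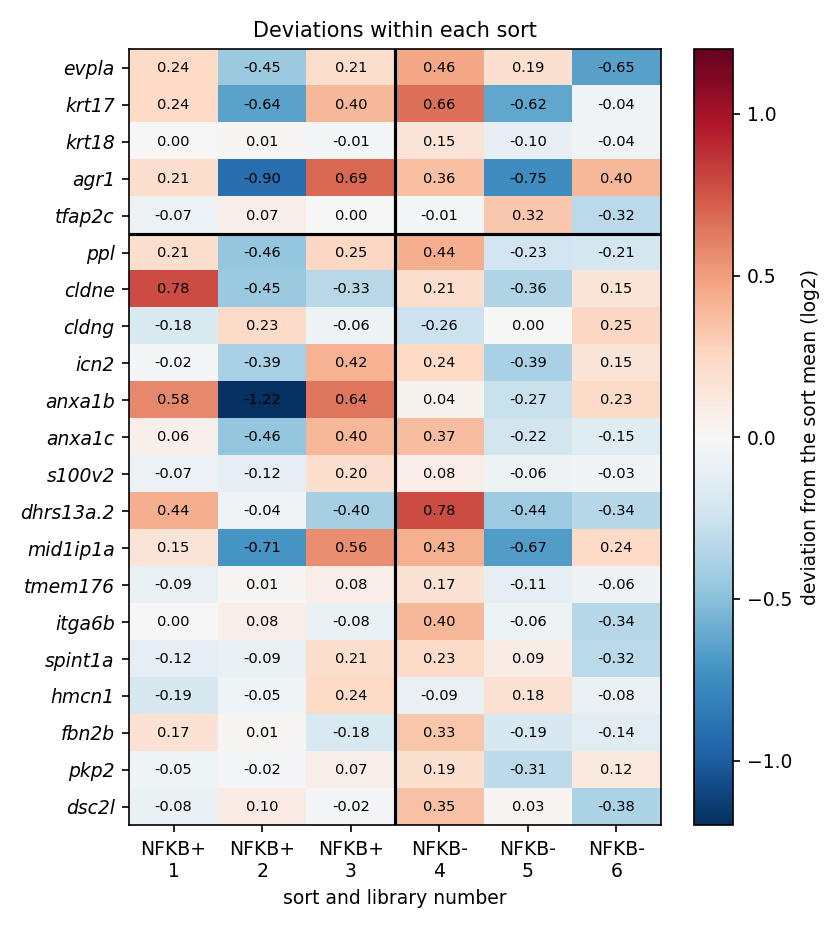
Deviation of each library from the mean of its sort, in log2 units, for the 5 genes (above the line) and the 16 genes of the periderm, basal epidermis and desmosome lists in the table. Blue cells in the columns of NFKB+ library 2 and NFKB- library 5 are shared by krt17, agr1 and several periderm genes, while krt18 stays within 0.15 of its sort mean.

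The genes most like each of these across the 6 libraries were found from the root mean square difference of mean-centred log2 levels. For krt18 they were colec12, cdc42l and sh3pxd2aa, at 0.023, 0.028 and 0.032 log2 units. For tfap2c they were spon1b, dcbld2 and gli3, at 0.051, 0.052 and 0.074. For evpla they were elovl7a, gna15.1 and efna1b, at 0.170, 0.172 and 0.184. For agr1 they were si:ch211-195b11.3, mid1ip1a and si:ch1073-340i21.3, at 0.246, 0.255 and 0.302. The first 2 of these were also among the nearest 3 of krt17, with mid1ip1a at 0.175 and si:ch211-195b11.3 at 0.191. Likeness is closer where the spread is small, so these distances are not comparable between the genes. The levels were centred over all 6 libraries, so a distance also counts the difference between the sorts, on which the table was selected. The nearest genes of krt18 had log2 differences of 1.11, 1.13 and 1.09, beside 1.11 for krt18. Nearness thus need not mean that genes varied alike within a sort.

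The size of the differences depended on the scaling between libraries. The median log2 difference of the table's genes was 1.08 as deposited, and rescaling shifted it by 0.49 (same total), -0.11 (same total without globins) or -0.88 (median ratio over the table). Relative to that median, krt18 stood at 0.04, tfap2c at 0.08, krt17 at 0.51, agr1 at 0.86 and evpla at 0.88 in the deposited scaling. Under the median ratio 3 of the 5 genes passed the threshold, beside 37.2% of the table's genes called higher. These were evpla, agr1 and krt18, with log2 differences of 1.08, 1.06 and 0.23, whereas krt17 at 0.71 (limma adjusted p = 0.0630) and tfap2c at 0.27 (adjusted p = 0.207) did not pass. A rescaling moves all genes by nearly the same amount. The largest downward shift of the median, -0.88, was smaller in size than the smallest difference of the 5, 1.11 for krt18. These rescalings thus did not turn the direction of any of the 5. This does not hold for every possible reference. Relative to kdrl, as given above, the differences of krt18 and tfap2c were -0.09 and -0.05.

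**Figure D5:**
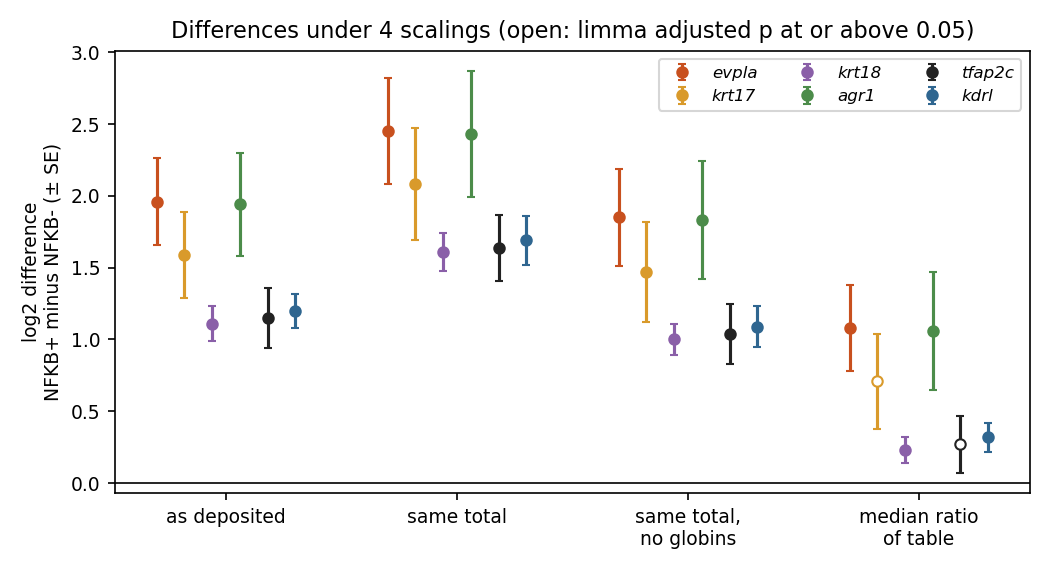
Log2 difference, NFKB+ minus NFKB-, with its standard error from limma for the 5 genes and kdrl under the deposited scaling and 3 others. Open symbols did not pass adjusted p 0.05. Those of krt17 and tfap2c are open under the median ratio. A rescaling moves all genes by nearly the same amount, so krt18, tfap2c and kdrl necessarily stay side by side in each.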

How the data were processed

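Per the labels' protocols, libraries were prepared from total RNA of the sorted cells with a kit for low input, and strand is not stated. Tools in the submitters' processing notes are STAR, HTSeq, DESeq2 and cutadapt, with build danRer10 and no versions or roles. The authors deposited 1 table, which per the file headers gives each gene a log2 value in every library, a log2 fold change, a signed fold score, and a raw and adjusted p-value. Library values are log2(normalized reads + 1), normalized by a size factor: in each library 100% of values under 1000 reads came out whole within 0.1 read. The duplicated rows of 2 genes, 4 rows in all, were left out of 2475. Each of the 2471 genes met the authors' limits, so genes outside them were not analysed here, and table reads (8393821 to 15165088 per library) are not depths. Columns give the sort but no labelled replicate.

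NFKB+ and NFKB- libraries were compared using limma 3.58.1 under R 4.3.3 (mean trend, no covariate, no filter, pseudocount 1) over all genes, with Benjamini-Hochberg adjustment and a threshold of 0.05, after a test on simulated data. With all genes selected on this contrast, 2471 of 2471 passed. The members and lists were chosen with earlier results of these data known. Named genes are the 5, all listed epithelial genes in the table, kdrl and the 2 largest differences of each blood or endothelial list. Alternatives were other scalings, pseudocounts, weights, a filter, limma-voom on recovered reads and leaving out each library; their effect is given in the closing section.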

Additional observations from a re-analysis of the deposited data

How the results depend on the processing

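The table was selected on this contrast, so stable calls say little. For the 5 genes, 73 of 75 values under the alternatives kept direction and call; the exceptions were krt17 (0.71) and tfap2c (0.27) under the median ratio, which assumes a table centred on unchanged genes. That scaling left 3 of the 5 genes, 4 periderm, 1 desmosome, 3 ionocyte and 0 other filament genes called higher, instead of 5, 9, 3, 5 and 1. The filter at a mean of 50 normalized reads also left 0 other filament genes, since it removed prph. It removed ca15a as well, which left 4 ionocyte genes called higher. Other named genes kept their call in 479 values and lost it in 14. Leaving out 1 library at a time, log2 differences ranged from 1.63 to 2.19 (evpla), 1.28 to 1.92 (krt17), 1.06 to 1.18 (krt18), 1.56 to 2.39 (agr1) and 0.99 to 1.31 (tfap2c). Differences in the ratio to kdrl then ranged from 0.51 to 1.00 (evpla), 0.15 to 0.73 (krt17), -0.16 to -0.03 (krt18), 0.38 to 1.21 (agr1) and -0.20 to 0.18 (tfap2c), the last changing sign without NFKB- library 5. That of krt17 was -0.01 against the mean of the listed endothelial genes instead of 0.39. The keratin share with zgc:77517, an alternative chosen after seeing the data, was 1.25% against 0.622%. No paired analysis was possible because columns are numbered through both sorts, without the labels' replicate numbers. Among the 5 genes the lowest count was 72 reads, for evpla in NFKB- library 6.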
